A study of Rattus norvegicus with 16 samples.

Results

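Water leaves the urine through aquaporins, membrane channels placed along the nephron, and the peptide vasopressin sets how much leaves in the collecting duct. Vasopressin binds the V2 receptor, encoded by Avpr2, on collecting duct principal cells. The receptor raises cyclic AMP, which brings Aqp2 to the apical membrane and, over longer times, raises Aqp2 transcription, while Aqp3 and Aqp4 carry the water out through the basolateral side. Aqp1 is the constitutive channel of the proximal tubule and the descending thin limb, Aqp7 is a water and glycerol channel of the late proximal tubule that fat cells also make, and Avpr1a encodes the V1a receptor of vascular smooth muscle and some tubule cells. The 7 genes Aqp1, Aqp2, Aqp3, Aqp4, Aqp7, Avpr2 and Avpr1a were taken by symbol from the array annotation, which names 4736 genes for probe sets with 1 symbol. They are represented by 10 of the 8740 probe sets that are not controls, where a probe set is a group of oligonucleotides for 1 transcript or a few. Of these, 8 probe sets for 5 genes passed the filter on low signal that left 5244 probe sets for testing, and Aqp4 and Avpr1a did not pass.

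RNA from both kidneys of 8 rats had been hybridised to 1-colour arrays, 1 array per kidney and 16 in all. The right kidney was treated with ACTH (adrenocorticotropic hormone) in rats 1 and 5, with DEX, an abbreviation the labels do not expand, in rats 3 and 7, and with saline in rats 2, 4, 6 and 8. The left kidney of each rat was labelled as its control, without a treatment of its own. The series description gives 2 rats per treatment, whereas the titles give 4 saline rats, and the titles were followed. Strain, sex, age, dose, route and duration are not given in the labels. Each array is RNA of 1 kidney, and the titles do not say whether all of the kidney was used. In such RNA fewer cells of a type and less RNA per cell cannot be told apart. Kidney markers were present: 8 of 9 proximal tubule, 3 of 4 thick ascending limb and 7 of 8 principal cell genes were on the array and passed the filter. Arrays of rats 1 to 4 and of rats 5 to 8 form separate clusters that the labels do not name, each holding 1 rat given ACTH, 1 given DEX and 2 given saline. The right minus left change of all 5244 tested probe sets spread most in the ACTH rats, with an SD of 0.36 in rat 1 and 0.38 in rat 5 on the log2 scale, against 0.27 and 0.21 in the DEX rats (3 and 7) and 0.20 to 0.27 in the saline rats.

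No aquaporin or vasopressin receptor probe set changed by the test in any of the 6 comparisons made. Aqp2, Aqp3 and Avpr2 were split within the ACTH pair. Their signal was higher in the right than in the left kidney of ACTH rat 5, by up to 2.61-fold for Aqp2, and lower in the right than in the left kidney of ACTH rat 1. The dimmest Avpr2 probe set was the exception in rat 1, and in the others the DEX and saline rats lay between. The changes of Aqp2 D13906_at and Aqp3 also differed between the clusters of arrays. How many of all tested probe sets had such a difference in change was not computed. Aqp2 D13906_at changed by −0.39, −0.11, −0.23 and −0.0041 in rats 1 to 4, and by 0.89, 0.14, 0.17 and 0.30 in rats 5 to 8. Aqp3 changed by −0.38 to 0.01 in rats 1 to 4 and by 0.04 to 0.52 in rats 5 to 8. In the other Aqp2 and the Avpr2 probe sets these changes overlapped between clusters. Aqp1 and Aqp7, the channels of the proximal tubule, had no such split within the ACTH pair. Neither had the dim Aqp4, at −0.06 and 0.06 in rats 1 and 5 on the log2 scale, within the saline range. Avpr1a, also dim and under the filter, did have it, at −0.24 and 0.25 in rats 1 and 5 against −0.11 to 0.09 in the saline rats.

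The sequences before the starts of Aqp2 and Avpr2 are shown because these are the effector and the receptor of the same cyclic AMP pathway. Each is the 250 bases before the RefSeq start in build GRCr8, on the strand of the gene, with capitals marking a match to a searched motif. The searched motifs, on both strands, were TGACGT, the 6 letters at the core of a cyclic AMP response element, and TGTTCT, the 6-letter unit that recurs in glucocorticoid response elements. Aqp2 is at chr7:132590036-132590285 on the plus strand and Avpr2 at chrX:156784889-156785138 on the plus strand.
Aqp2: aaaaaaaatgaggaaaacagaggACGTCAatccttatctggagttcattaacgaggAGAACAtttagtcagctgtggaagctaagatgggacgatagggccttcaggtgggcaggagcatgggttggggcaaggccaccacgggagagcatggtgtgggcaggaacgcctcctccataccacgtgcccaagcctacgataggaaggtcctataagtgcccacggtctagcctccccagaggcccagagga
Avpr2: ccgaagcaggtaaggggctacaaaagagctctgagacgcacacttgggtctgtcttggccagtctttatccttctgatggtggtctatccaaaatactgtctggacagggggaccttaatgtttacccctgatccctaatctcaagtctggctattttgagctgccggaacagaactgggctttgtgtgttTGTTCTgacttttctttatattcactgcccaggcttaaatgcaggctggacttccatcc

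In the Aqp2 window the reverse complement of TGACGT lies 227 to 222 bases before the start, and the reverse complement of TGTTCT lies 194 to 189 bases before it. In the Avpr2 window TGTTCT lies 59 to 54 bases before the start. Sequences were found for 6 of the 7 genes, and the windows of Aqp1, Aqp3, Aqp4 and Avpr1a held neither motif. Of 33469 such windows of rat genes, 6.95% held TGACGT, and 17.5% held TGTTCT on either strand. In the RefSeq annotation Aqp2 lies beside Aqp5 and Aqp6 on chromosome 7, Aqp7 lies beside Aqp3 on chromosome 5, and Avpr2 lies beside L1cam on the X chromosome. Positions of the probe sets themselves are not printed, for want of a build in the annotation of the arrays.

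Avpr2, the V2 receptor, was measured by 3 probe sets, of which Z11932cds_at and Z11932cds_g_at were made from the same source sequence. Its signal in Z11932cds_at was 215 and 434 in the right kidneys of the ACTH rats (1 and 5), 268 and 245 in those of the DEX rats (3 and 7), and 293, 293, 255 and 266 in those of saline rats 2, 4, 6 and 8. The 8 left kidneys ran from 211 through a median of 267 to 302. The right kidney of ACTH rat 5 was thus above every other kidney, while that of ACTH rat 1 was below all the saline right kidneys. The right minus left change, on the scale of log2(signal + 16) used for all changes, was −0.32 and 0.84 in the ACTH rats (1 and 5), −0.15 and 0.21 in the DEX rats (3 and 7), and 0.04 ± 0.11 (SD, n = 4) in the saline rats.

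The second Avpr2 probe set, Z11932cds_g_at, had a signal of 169 and 373 in the right kidneys of the ACTH rats (1 and 5), 208 and 226 in those of the DEX rats, and 205, 208, 259.6 and 212 in those of saline rats 2, 4, 6 and 8. It gave the same order in the ACTH pair, with changes of −0.20 and 0.67. The dimmer X83264exon_at, at a signal of 56.2 to 101 over the 16 kidneys, changed by 0.01 and 0.48 in the same 2 rats. The direction of rat 1 was therefore not shared by all 3 probe sets, whereas rat 5 was the highest of the 8 rats in each.

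Avpr1a, the V1a receptor, had a signal of 33.6 and 42.5 in the ACTH right kidneys, 35.8 and 36.1 in the DEX right kidneys, 33.3 to 43.7 in the saline right kidneys and 31.6 to 42.4 in the left kidneys. These ranges overlap throughout, and the probe set fell among the 40% with the lowest mean. Its changes ran from −0.24 in ACTH rat 1 to 0.25 in ACTH rat 5.

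Aqp2, the apical water channel that vasopressin regulates, was measured by 2 probe sets made from the same source sequence. In D13906_at its signal was 986 and 2249.6 in the right kidneys of the ACTH rats (1 and 5), 869 and 1303 in those of the DEX rats (3 and 7), and 969.9, 1156, 1408 and 1611 in those of saline rats 2, 4, 6 and 8. The left kidneys lay between 1020.5 and 1308, with a median of 1185. The right kidney of ACTH rat 5 stood above every other kidney, and that of ACTH rat 1 lay within the range of the saline right kidneys.

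The same pattern was steeper in D13906_g_at. Its signal was 449 and 1952 in the right kidneys of the ACTH rats (1 and 5), 396 and 859.6 in those of the DEX rats (3 and 7), and 391, 533, 917 and 1091 in those of saline rats 2, 4, 6 and 8. In the left kidneys it was 583 and 748 in the ACTH rats (1 and 5), 449 and 717 in the DEX rats (3 and 7), and 407, 461, 862 and 817 in saline rats 2, 4, 6 and 8. In this probe set all right and all left kidneys of rats 5 to 8 were above those of rats 1 to 4, so that its level followed the clusters of arrays in treated and control kidneys alike.

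Within rats, Aqp2 changed by −0.39 and 0.89 in the ACTH rats (1 and 5) in D13906_at and by −0.36 and 1.36 in D13906_g_at. The saline changes were 0.08 ± 0.18 and 0.16 ± 0.20 (SD, n = 4) in the same order of probe sets, and DEX rats 3 and 7 had −0.23 and 0.17, and −0.17 and 0.26. The gap between the ACTH rats was 1.28 in D13906_at and 1.73 in D13906_g_at. The saline rats ran from −0.11 to 0.30 and from −0.05 to 0.41 in the same order of probe sets. The ACTH rats lie in different clusters of arrays, and their changes also spread most over all tested probe sets.

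Aqp3, the basolateral water and glycerol channel of principal cells, had a signal of 582 and 773 in the right kidneys of the ACTH rats (1 and 5), 561 and 463 in those of the DEX rats (3 and 7), and 656, 683, 518 and 448 in those of saline rats 2, 4, 6 and 8. The left kidneys were at 762 and 535 in the ACTH rats, 555 and 451 in the DEX rats, and 737, 689, 487 and 383 in saline rats 2, 4, 6 and 8. Left kidneys of rats 5 to 8 were lower than those of rats 1 to 4, the reverse of Aqp2 D13906_g_at. The right minus left change was −0.38 and 0.52 in the ACTH rats (1 and 5), 0.01 and 0.04 in the DEX rats and 0.03 ± 0.16 (SD, n = 4) in the saline rats.

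Aqp4, the other basolateral channel of principal cells, had a signal of 18.3 and 24.3 in the ACTH right kidneys, 21.1 and 21.0 in the DEX right kidneys, 15.6 to 23.8 in the saline right kidneys and 16.1 to 24.9 in the left kidneys. The probe set was left out by the filter on low signal, and the arrays carry no detection call that would say whether it measured its transcript. Tested without the filter, neither Aqp4 nor Avpr1a passed in limma for ACTH (0.05 ± 0.12 and 0.01 ± 0.15 SE, adjusted p = 0.986 and 0.995) or for DEX (0.15 ± 0.12 and 0.02 ± 0.15 SE, adjusted p = 0.999 for both).

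**Figure D1:**
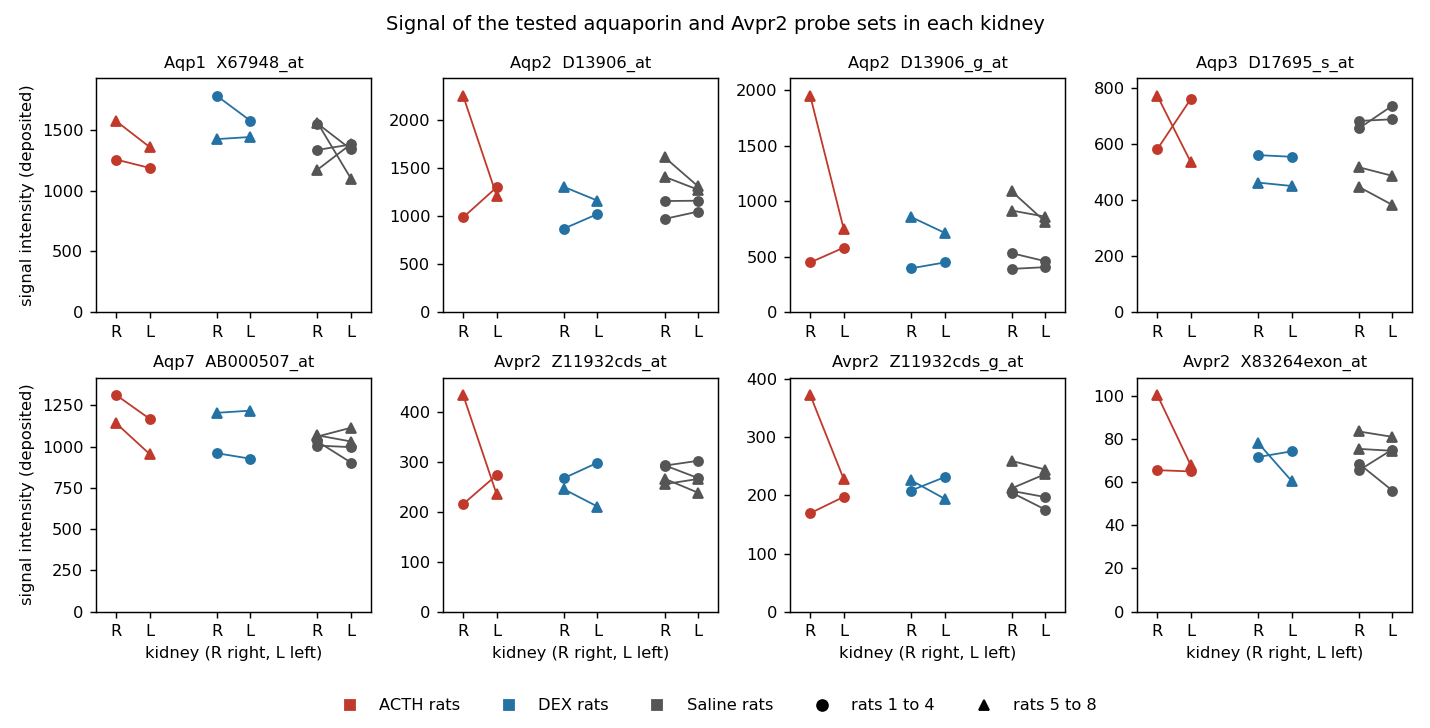
Deposited signal intensity (vertical axis, linear, from 0) of the 8 tested probe sets in the right (R) and left (L) kidney of each rat, joined by a line per rat; colour gives the treatment of the right kidney and the symbol the cluster of arrays. In Aqp2, Aqp3 and Avpr2 the line of ACTH rat 5 falls steeply from right to left, as for Aqp2 D13906_g_at with 1952 in the right and 748 in the left kidney.

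Aqp1, the channel of the proximal tubule and thin limb, had a signal of 1255 and 1572 in the right kidneys of the ACTH rats (1 and 5), 1779.5 and 1423 in those of the DEX rats (3 and 7), and 1334, 1551, 1172 and 1558 in those of saline rats 2, 4, 6 and 8. The left kidneys ran from 1097 through a median of 1369 to 1574. The groups overlapped, and the widest within-rat changes were in saline rats, 0.50 in rat 8 and −0.24 in rat 6. ACTH rats 1 and 5 changed by 0.08 and 0.21, and DEX rats 3 and 7 by 0.18 and −0.02.

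Aqp7, the water and glycerol channel, had a signal of 1313 and 1142 in the right kidneys of the ACTH rats (1 and 5), 959.8 and 1205 in those of the DEX rats (3 and 7), and 1006, 1031, 1061 and 1068 in those of saline rats 2, 4, 6 and 8. The left kidneys ran from 903 through a median of 1014 to 1218. The left kidneys of ACTH rats 1 and 5 were at 1168 and 955, against 903 to 1114 in the saline left kidneys. The right minus left changes overlapped, at 0.17 and 0.25 in the ACTH rats against −0.07 to 0.19 in the saline rats. DEX rats 3 and 7 changed by 0.05 and −0.02. Aqp7 varied least among the tested members, with an SE of 0.15 in the ACTH effect.

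**Figure D2:**
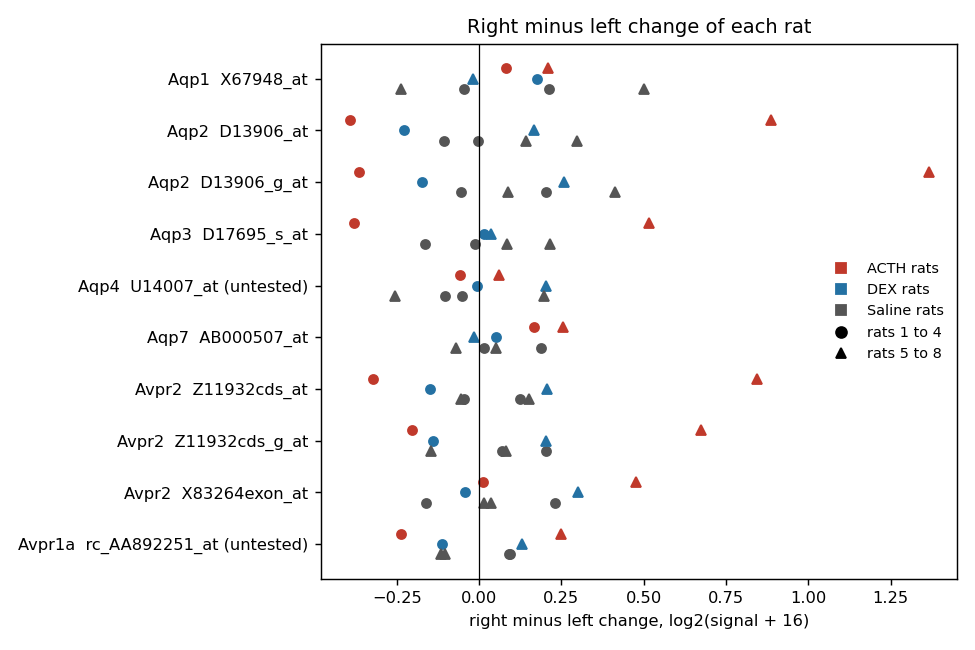
Right minus left change (horizontal axis, log2(signal + 16)) of all 10 probe sets in each rat; colour gives the treatment of the right kidney and the symbol the cluster of arrays. The 2 ACTH rats mark both ends of the range for Aqp2, Aqp3, Avpr2 Z11932cds_at and Z11932cds_g_at, and the dim Avpr1a. For Aqp1 and Aqp7 they lie close together.

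The first comparison asked whether ACTH changed the treated kidney relative to its partner more than saline did. In a limma fit of all 5244 tested probe sets with a term for each rat, 0 of the 8 member probe sets passed an adjusted p of 0.05 (Benjamini-Hochberg), where 0.496% of all tested probe sets did, and 0 members had an unadjusted p under 0.05. The estimates were positive in all 8, with a median of 0.17 beside a median of 0.00 over all tested probe sets. For Aqp2 the ACTH effect was 0.16 ± 0.28 SE in D13906_at (adjusted p = 0.939) and 0.34 ± 0.35 SE in D13906_g_at (adjusted p = 0.867). The 95% confidence interval of D13906_g_at ran from −0.43 to 1.11, or from 0.742-fold to 2.16-fold with these 2 ACTH and 4 saline rats.

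For the receptor Avpr2 the ACTH effect was 0.22 ± 0.26, 0.18 ± 0.23 and 0.21 ± 0.17 SE in Z11932cds_at, Z11932cds_g_at and X83264exon_at (adjusted p from 0.802 to 0.903). It was 0.04 ± 0.23 SE for Aqp3, 0.04 ± 0.20 SE for Aqp1 and 0.16 ± 0.15 SE for Aqp7, with adjusted p from 0.837 to 0.979. For Aqp2, Aqp3, Avpr2 Z11932cds_at and Avpr2 Z11932cds_g_at these means hide the opposite changes of the 2 rats. In Aqp1, Aqp7 and Avpr2 X83264exon_at both ACTH rats changed upward. Within rats 1 to 4 the ACTH effect was −0.34 and −0.44 for the Aqp2 probe sets, −0.29 for Aqp3 and −0.36 for Avpr2 Z11932cds_at, and within rats 5 to 8 it was 0.67, 1.12, 0.37 and 0.80 in the same order. None of these passed in its own fit.

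Leaving out rat 1 brought 1 of the 8 member probe sets, Aqp2 D13906_g_at, past the threshold in limma, at 1.20 ± 0.23 SE (adjusted p = 0.0428), where 0.877% of all tested probe sets passed. This assumes that rat 5, then the lone ACTH rat, varies like the others. Leaving out rat 5 turned the estimate to −0.53 (adjusted p = 0.509).

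The DEX comparison gave smaller values. In limma 0 of the 8 member probe sets passed, as did 0% of all tested probe sets, and 0 members had an unadjusted p under 0.05. The estimates had a median of −0.02 beside 0.00 over all tested probe sets, with 7 negative and 1 positive. Aqp2 had −0.11 ± 0.28 and −0.12 ± 0.35 SE, Aqp3 −0.01 ± 0.23 SE, Aqp1 −0.03 ± 0.20 SE and Aqp7 −0.03 ± 0.15 SE. Avpr2 had −0.02, −0.02 and 0.10 in its 3 probe sets, and the adjusted p was 0.999 for every member. The widest interval, for Aqp2 D13906_g_at, ran from 0.54-fold to 1.57-fold, and the narrowest, for Aqp7, from 0.781-fold to 1.23-fold.

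**Figure D3:**
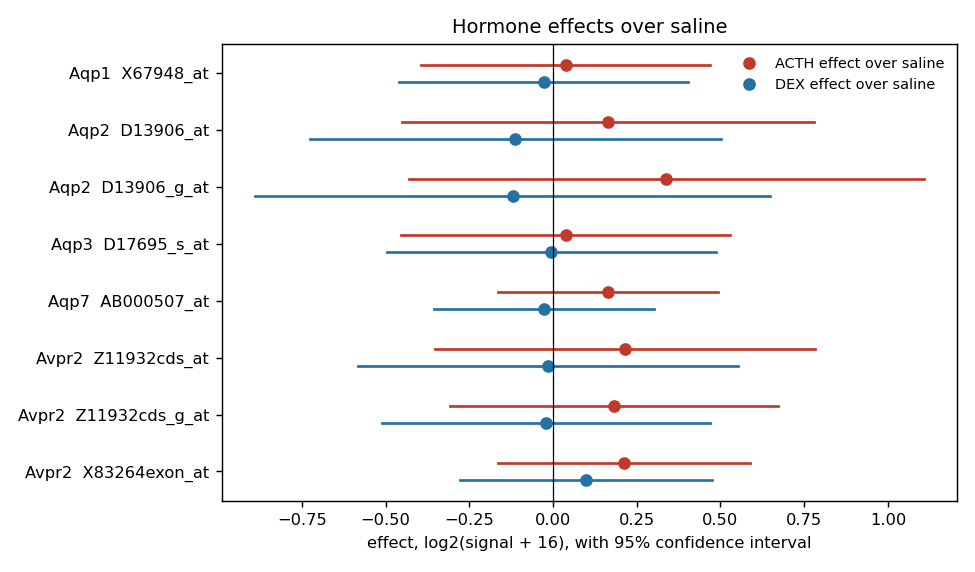
ACTH and DEX effects over saline for the 8 tested probe sets. The horizontal axis is the difference of right minus left changes on the log2(signal + 16) scale. Points are limma estimates and bars 95% confidence intervals, ACTH in red above DEX in blue. The values come from 2 ACTH, 2 DEX and 4 saline rats. Every interval includes 0, and those of Aqp2 D13906_g_at are the widest.

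The difference between the ACTH and DEX effects was tested as its own contrast, because both effects share the saline rats. It was not past the threshold for any of the 8 member probe sets, against 0.572% of all tested probe sets. In that limma contrast 0 members had an unadjusted p under 0.05. It was positive in all 8, from 0.04 for Aqp3 to 0.46 for Aqp2 D13906_g_at, and the smallest adjusted p in limma was 0.759. Without rat 1 that probe set had 1.32 ± 0.25 SE (adjusted p = 0.0304), where 1.91% of all tested probe sets passed.

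Right against left kidney within each treatment likewise gave 0 member calls in limma, with 0 members at an unadjusted p under 0.05 in any of the 3. In the ACTH rats, where 3.57% of all tested probe sets passed, member changes ran from 0.07 to 0.50 with a smallest adjusted p of 0.402. In the DEX rats, where 0% passed, they ran from −0.03 to 0.13. In the saline rats, where 0% passed, they ran from 0.03 to 0.16. Leaving out rat 1, so that ACTH rat 5 stood alone, brought both Aqp2 probe sets and Avpr2 Z11932cds_at past the threshold in the ACTH rats, at 0.89 ± 0.20, 1.36 ± 0.21 and 0.84 ± 0.18 SE (adjusted p = 0.0279, 0.00696 and 0.0248), where 5.19% of all tested probe sets passed.

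The split within the ACTH pair, noticed in these values and not tested, since each cluster holds 1 ACTH rat, can be set beside all probe sets. Rat 5 was above and rat 1 below all 4 saline rats in 5 of the 8 member probe sets, both of Aqp2, that of Aqp3 and 2 of Avpr2, against 6.71% of all tested probe sets. The opposite arrangement, rat 1 above and rat 5 below, held for 0 members and 2.97% of all tested probe sets. Rat 5 had the highest change of all 8 rats in 7 of the 8 member probe sets, Aqp1 being the exception, against 22.9% of all tested probe sets. Both ACTH rats above all saline rats, and both below, occurred in 0 members, against 7.82% and 7.84% of all tested probe sets. The same counts for the DEX rats were 0 members, against 6.08% and 6.33%. The 5 probe sets stand for 3 genes, and those of 1 gene share their transcript.

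Markers of the collecting duct and the medulla are given beside these genes, and some of them, but not all, had the same order in the ACTH pair. The principal cell and collecting duct list other than the members (7 genes tested of 8) changed by −0.07 and 0.57 in its mean log2 level in the ACTH rats (1 and 5), by 0.00 and 0.13 in the DEX rats (3 and 7), and by −0.05 to 0.17 in the saline rats. Of its 7 genes, 5 were higher in the right kidney in rat 1, where Aqp2 and Aqp3 were lower, and 6 in rat 5. Fxyd4, a collecting duct regulator of the sodium pump, changed by −1.15 and 1.47 in the ACTH pair, against −0.47 to 0.98 over the saline rats. The glucocorticoid-inactivating enzyme Hsd11b2 changed by 0.10 and 0.91 in the ACTH rats. The epithelial sodium channel subunits Scnn1a, Scnn1b and Scnn1g were higher in the right kidney of both ACTH rats, at 0.18 and 0.81, 0.24 and 0.65, and 0.39 and 0.14, and so was the transcription factor gene Gata3, at 0.06 and 0.05, while the potassium channel Kcnj1 changed by −0.33 and −0.06. The levels of this list in the left kidneys ran from 8.35 to 8.66 on the log2 scale.

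The inner medulla and thin limb list (5 genes tested of 6) changed by −0.41 and 0.38 in the ACTH rats (1 and 5), by −0.33 and −0.41 in the DEX rats (3 and 7), and by −0.35 to 0.24 in the saline rats. In rat 1 none of its genes was higher in the right kidney, and in rat 5 it was 3 of the 5. Akr1b1, the aldose reductase that makes the medullary osmolyte sorbitol, changed by −1.02 and 1.44 in the ACTH rats (1 and 5), by −0.96 and −0.68 in the DEX rats (3 and 7) and by −0.91 to 0.75 over the saline rats, whereas the urea transporter Slc14a2, another inner medullary gene, changed by −0.20 and −0.02. The osmolyte transporter Slc5a3 changed by −0.06 and −0.70 in the same rats. The proximal tubule list changed by −0.21 and −0.06 and the thick ascending limb list by −0.54 and −0.31 in the ACTH rats (1 and 5). In the DEX rats (3 and 7) these lists changed by 0.25 and 0.14, and by 0.48 and 0.06. In the saline rats they changed by −0.06 to 0.37 and by −0.20 to 0.16. How much collecting duct and medulla each RNA held is not given in the labels, and the part of these markers in the Aqp2, Aqp3 and Avpr2 values was not tested.

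**Figure D4:**
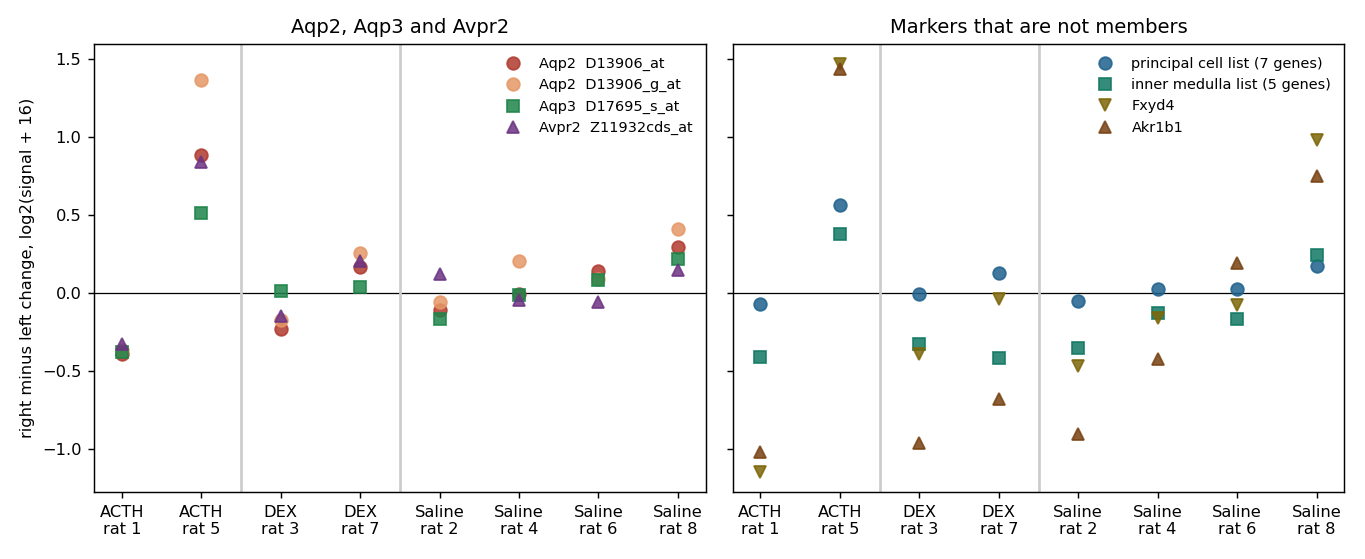
Right minus left change (vertical axis, log2(signal + 16)) in each rat, in the order ACTH, DEX and saline, of Aqp2, Aqp3 and Avpr2 Z11932cds_at (left panel) and of collecting duct and medulla markers outside the 7 genes (right panel, mean change for lists). ACTH rat 5 is the highest rat in both panels, and ACTH rat 1 lies below 0 in all 8 measures shown. Saline rats 2 and 4 and DEX rat 3 are below 0 in most of them too, as for Akr1b1 at −0.91, −0.42 and −0.96. Fxyd4 and Akr1b1 are also part of the list means. Of the 7 genes behind the principal cell mean, 5 were above 0 in rat 1. Of the 5 behind the inner medulla mean, 2 were below 0 in rat 5. In rats 1 and 5 Fxyd4 changed by −1.15 and 1.47 and Aqp2 D13906_g_at by −0.36 and 1.36.

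Markers of other cells that express Aqp7, Aqp1 or Avpr1a are given in the same way. The fat marker list (6 genes tested of 8), given because adipocytes express Aqp7, changed by 1.52 and 0.50 in the ACTH rats (1 and 5), by −1.36 and −1.19 in the DEX rats (3 and 7), and by −1.14 to 0.48 in the saline rats. Aqp7 changed by 0.17 and 0.25 in the ACTH rats, 0.05 and −0.02 in the DEX rats and −0.07 to 0.19 in the saline rats. The erythrocyte list (3 genes tested of 7), given because red cells express Aqp1, changed by −0.31 and 0.87 in the ACTH rats (1 and 5), against 0.08 and 0.21 for Aqp1. The endothelium list changed by −0.01 and −0.07 in the ACTH rats, −0.09 and −0.08 in the DEX rats and −0.03 to 0.29 in the saline rats. The smooth muscle list, which marks cells that express Avpr1a, changed by 0.21 and 0.50 in the ACTH rats. In the DEX rats it changed by −0.13 and −0.08, and in the saline rats by −0.09 to 0.01. Their part in the values was not tested.

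The left kidneys show how far the members varied between the clusters of arrays without a labelled treatment. Aqp2 D13906_g_at averaged 786 ± 65.7 in rats 5 to 8 and 475 ± 75.6 in rats 1 to 4 (SD, n = 4 each), a log2 difference of 0.72, while D13906_at differed by 0.13 between the same kidneys. Aqp3 averaged 464 ± 64.0 in rats 5 to 8 and 686 ± 92.3 in rats 1 to 4 (SD, n = 4 each), a log2 difference of −0.55. Avpr2 Z11932cds_at averaged 237 ± 22.6 and 286 ± 17.4 in the same order (SD, n = 4 each), a log2 difference of −0.25. The other Avpr2 probe sets went the other way, with log2 differences of 0.16 for Z11932cds_g_at and 0.06 for X83264exon_at, and their clusters overlapped. In Aqp2 D13906_g_at, and in Aqp3 and Avpr2 Z11932cds_at with the opposite sign, the clusters did not overlap. All left kidneys of rats 5 to 8 lay above those of rats 1 to 4 in 19.6% of all tested probe sets, and below them in 16.2%.

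The genes whose change across the 8 rats was most like that of a member are given by Pearson's r, as a description. For Aqp2 D13906_at they were Smim5 (r = 0.98, and 0.96 over the 6 rats without rats 1 and 5), Fcgrt, the neonatal Fc receptor (0.96 and 0.84), and Npr1, a natriuretic peptide receptor (0.96 and 0.79). For Aqp3 they were Fxyd4 (r = 0.96, and 0.87 without rats 1 and 5), the organic anion transporter Slc22a7 (0.96 and 0.92) and Smim5 (0.96 and 0.89). For Avpr2 Z11932cds_at they were its neighbour L1cam, a cell adhesion molecule (r = 0.99, and 0.94 without rats 1 and 5), Rph3al (0.97 and 0.79) and Plagl1 (0.96 and 0.86). L1cam changed by −0.31 and 0.73 in the ACTH rats (1 and 5).

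Among the members, Aqp2 D13906_at had an r of 0.94 with Aqp3 and 0.94 with Avpr2 Z11932cds_at over the 8 rats, and 0.74 and 0.60 without rats 1 and 5. With the other Avpr2 probe sets it had an r of 0.80 (Z11932cds_g_at) and 0.66 (X83264exon_at) over the 8 rats, and of −0.0061 and 0.17 without rats 1 and 5. Between Aqp3 and Avpr2 Z11932cds_at r was 0.85 over the 8 rats and 0.07 without rats 1 and 5, so that this likeness rested on the ACTH rats. With Z11932cds_g_at and X83264exon_at, Aqp3 had an r of 0.66 and 0.49 over the 8 rats, and of −0.63 and −0.28 without rats 1 and 5. Aqp1 was most like Hnrnpab (r = 0.94, and 0.79 without rats 6 and 8, its farthest 2), Fxyd2, the sodium pump gamma subunit (0.92 and 0.88), and Smpx (0.92 and 0.61). Aqp7 was most like Bckdha, a subunit of the branched-chain keto acid dehydrogenase (r = 0.96, and 0.92 without rats 4 and 5), Ppox of heme synthesis (0.95 and 0.89) and Ddt (0.95 and 0.91).

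The wider pathway was read from a list of 71 symbols, of which 59 were on the array and 43 passed the filter. In limma 0 of the 43 passed in any of the 6 comparisons. At an unadjusted p under 0.05 there was 1 of the 43 for the ACTH effect, 0 for the DEX effect and 7 for the difference between them, where 9.44%, 2.94% and 12.2% of all tested probe sets passed in the same order. Right over left there were 4, 1 and 0 in the ACTH, DEX and saline rats, where 18.4%, 5.91% and 3.74% of all tested probe sets passed. The median change was 0.01 for ACTH and 0.04 for DEX, beside 0.00 over all tested probe sets in both. The other aquaporins on the array, Aqp5, Aqp6, Aqp8 and Aqp9, were all under the filter, with mean signals of 53.7, 58.7, 51.5 and 49.0 over the 16 kidneys.

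By group, 11 of 17 genes of V2 receptor and cyclic AMP signalling were positive for ACTH (median 0.06) and 7 of 17 for DEX (median −0.04). Of the Aqp2 vesicle traffic genes, 6 of 13 were positive for ACTH (median −0.03) and 9 of 13 for DEX (median 0.12). Of the medullary solute and osmolyte genes, 3 of 7 were positive for ACTH (median −0.01) and 4 of 7 for DEX (median 0.17). For V1a receptor and Gq signalling it was 1 of 4 for ACTH (median −0.09) and 2 of 4 for DEX (median 0.05).

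Genes with the smallest p in the list, none past the threshold in limma, were as follows. For ACTH, Prkacb, a catalytic subunit of protein kinase A, had −0.48 ± 0.18 SE (adjusted p = 0.392), Vamp3, a vesicle SNARE, −0.29 ± 0.16 SE and Stx4, a plasma membrane SNARE, −0.32 ± 0.18 SE. Prkacb changed by −0.18 and −0.53 in the ACTH rats (1 and 5), against −0.11 to 0.38 in the saline rats. Both ACTH rats thus lay below all saline rats, as they did in 7.84% of all tested probe sets. For DEX, the phospholipase Plcb1 of the Gq pathway had 0.43 ± 0.21 SE, the SNARE Snap23 0.37 ± 0.22 SE and the urea transporter Slc14a2 −0.30 ± 0.20 SE (adjusted p = 0.999 for each).

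For the difference between ACTH and DEX in limma, Plcb1 had −0.76 ± 0.25 SE (adjusted p = 0.248). In the same limma contrast Snap23 had −0.64 ± 0.26 SE and Rab5a, an early endosome GTPase, −0.67 ± 0.27 SE (adjusted p = 0.357 for both). Plcb1 changed by −0.48 and −0.69 in the ACTH rats (1 and 5) and by 0.21 and 0.14 in the DEX rats (3 and 7), while saline rats ran from −0.79 to 0.12. Right over left, the genes with the smallest p were Plcb1, Vamp3 and Prkacb in the ACTH rats (−0.59, −0.42 and −0.35), Slc14a2, the cyclic AMP responsive factor Crem and the cortical linker Ezr in the DEX rats (−0.40, −0.29 and 0.25), and Plcb1, the dynein heavy chain Dync1h1 and Prkaca in the saline rats (−0.26, 0.14 and −0.15). None of these passed either. Without rat 1, the difference between ACTH and DEX was −1.18 for Rab5a, −1.06 for Snap23 and 2.26 for the aldose reductase gene Akr1b1. In the same fit Rab5a (−0.91) and Snap23 (−0.82) passed for right over left with ACTH rat 5 as the lone ACTH rat (adjusted p = 0.0197 and 0.0348), where 5.19% of all tested probe sets passed. Without saline rat 6, Plcb1 passed for right over left in the ACTH rats (−0.59, adjusted p = 0.0284), where 3.79% of all tested probe sets passed.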

How the data were processed

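The authors deposited linear intensities, with 1 signal value for each probe set and array, from 5.18 to 12664 over 16 arrays. The sources used here do not give the software or normalization. Array medians lay between 76.0 and 82.4 and spanned 0.117 on the log2 scale, so nothing was rescaled. No deposited column was left unused. The number of arrays limits the precision.

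Values were converted to log2(value + 16). After removing 59 control probe sets, the 40% with the lowest mean log2 value over all arrays were left out (3496), leaving 5244. By the annotation, 7006 probe sets had 1 gene symbol, 308 had more than 1 and 1426 had none. limma (version 3.58.1, R 4.3.3) was fitted with a term for each rat and terms for the right kidney, ACTH and DEX (5 residual degrees of freedom, prior 7.34), checked on simulated data. Tests were two-sided. Left and right kidneys come from the same animal. The rat term pairs them by design. Their deviations from group means correlated at 0.62 to 0.76 within rats. For ACTH and for DEX both rats of the group have the same r by construction. Each group also spans both clusters of arrays, so r includes whatever the kidneys of a cluster share. Kidneys of different rats in the same cluster were not correlated for comparison.

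The members and the gene lists were chosen with earlier results of these data known. Every member probe set is named. From the pathway list the 3 genes with the smallest p per comparison are named, and for likeness the 3 genes with the highest Pearson r. Alternatives were no rat term, a pseudocount of 1, no filter, quantile normalization, right kidneys only, each cluster alone and each rat left out.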

Additional observations from a re-analysis of the deposited data

Results flagged for a closer look

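Of 30 sets of member values in the saline right kidneys, the left kidneys and the saline changes that were examined for a value far from the rest, 1 stood out, where chance gives about 1 in 20. It was the signal of Avpr2 in Z11932cds_g_at in the right kidney of saline rat 6, at 259.6, against 205 to 212 in the other 3 saline right kidneys. The left kidney of the same rat was also the highest left kidney in this probe set, at 245. The second Avpr2 probe set from the same source sequence, Z11932cds_at, had 255 in that right kidney, the lowest of the saline right kidneys.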

How the results depend on the processing

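Of the member effects (ACTH, DEX and their difference) under settings other than leaving out a rat, 146 kept their direction and their side of the threshold and 22 turned direction, none past the threshold; the cause was not tested. In rats 1 to 4 alone the ACTH effect was −0.34 and −0.44 for Aqp2 (D13906_at, D13906_g_at), −0.29 for Aqp3, −0.36, −0.34 and −0.023 for Avpr2 (Z11932cds_at, Z11932cds_g_at, X83264exon_at) and −0.0015 for Aqp1. The DEX effect there was 0.093 for Aqp1, 0.10 for Aqp3 and −0.077 for Avpr2 X83264exon_at, and ACTH minus DEX was −0.095 for Aqp1, −0.17 and −0.19 for Aqp2, −0.39 for Aqp3, and −0.17 and −0.064 for the first 2 Avpr2 probe sets. In rats 5 to 8 alone the DEX effect was 0.0072 for Aqp2 D13906_g_at and 0.16 and 0.24 for the first 2 Avpr2 probe sets. With right kidneys only, the DEX effect was 0.19 for Aqp1 and 0.046 for Aqp7, and ACTH minus DEX was −0.18 for Aqp1.

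Leaving out 1 rat or another turned the direction of the ACTH effect and of ACTH minus DEX for every tested probe set but that of Aqp7. Over the 3 effects, leaving out each rat in turn gave 156 member effects unchanged in direction and call, 34 turned and 2 newly past the threshold, both Aqp2 D13906_g_at without rat 1. The ACTH effect ranged from −0.48 to 0.80 and −0.53 to 1.20 for Aqp2, −0.41 to 0.49 for Aqp3, −0.37 to 0.80, −0.26 to 0.62 and −0.019 to 0.45 for Avpr2, −0.077 to 0.17 for Aqp1 and 0.12 to 0.21 for Aqp7. The DEX effect ranged from −0.31 to 0.083 and −0.34 to 0.095 for Aqp2, −0.071 to 0.056 for Aqp3, −0.19 to 0.16, −0.19 to 0.15 and −0.073 to 0.27 for Avpr2, −0.14 to 0.10 for Aqp1 and −0.067 to 0.019 for Aqp7. ACTH minus DEX ranged from −0.36 to 0.92 and −0.40 to 1.32 for Aqp2, −0.41 to 0.49 for Aqp3, −0.35 to 0.82, −0.24 to 0.64 and −0.12 to 0.35 for Avpr2, −0.031 to 0.16 for Aqp1 and 0.15 to 0.24 for Aqp7. Member calls ranged from 0 to 1 for ACTH, 0 to 1 for ACTH minus DEX and 0 to 3 for right over left in ACTH rats. Pathway calls ranged from 0 to 3 for ACTH minus DEX and 0 to 2 for right over left in ACTH rats.

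Pathway calls numbered 0 except in rats 1 to 4 alone (1 for ACTH, 2 for ACTH minus DEX, and 1, 2 and 1 for right over left in the ACTH, DEX and saline rats), with quantile normalization (1 for right over left in ACTH rats, Vamp3) and with a rat left out. Without the replicate block, that is without pairing the kidneys of a rat, 0 members were called and over all tested probe sets 0 were called for ACTH, against 26 with pairing, 0 for ACTH minus DEX, against 30, and 4 for right over left in ACTH rats, against 187. The ACTH count over all tested probe sets was 12 with quantile normalization, 0 with right kidneys only, 296 in rats 1 to 4 alone and 0 in rats 5 to 8 alone, and 9 to 114 with a rat left out.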
